A study of Ceratotherium simum with 9 samples.

Results

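The miR-148 and miR-152 seed family was followed in extracellular vesicles (EVs) of follicular fluid (FF) from the southern white rhinoceros (SWR). Members were chosen by name and by level: every entry called miR-148a, miR-148b or miR-152, with any species prefix and arm, that exceeded 10 CPM (read counts scaled for library size, TMM-adjusted by the authors) in at least 2 of the 3 libraries of at least 1 follicle stage. This gave 5 members of the 8 entries with these names, out of 417 entries above the same minimum and 3886 entries in all. They were eca-miR-148a, the miRNA with the highest mean CPM of the D and P groups, and its relatives eca-miR-148b-3p, bta-miR-152, hsa-miR-152-3p and hsa-miR-148a-5p (eca, horse; bta, cattle; hsa, human). The levels chose the members, and eca-miR-148a was singled out for its level and for its value in the library D2, so its values are a description with no test.

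Both SWR females had received the progestin chlormadinone acetate and then the GnRH analog Deslorelin, and their follicles were aspirated and flushed with heparinized medium under anesthesia. Follicles were grouped by diameter into growing (G; 11 to 17 mm), dominant (D; 18 to 29 mm) and pre-ovulatory (P; 30 to 34 mm). Small RNA was sequenced from 3 libraries of each group (n = 3), whose EVs were pooled over the 2 animals. They are named G1 to G3, D1 to D3 and P1 to P3, and values of a group are given in that order. No untreated group was included, and since the pools mix the same 2 animals, p-values measure only the spread between pools, which may be technical.

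MicroRNAs guide the silencing complex to messenger RNAs that pair with their seed, and miRNAs with the same seed can share targets. The dominant arms of miR-148a, miR-148b and miR-152 carry the same seed, and in human and mouse cells miR-148a and miR-152 are known to repress the maintenance DNA methyltransferase DNMT1. In mammals miR-148a is abundant in liver, where it lowers the LDL receptor and the cholesterol exporter ABCA1, and in milk vesicles. The entry hsa-miR-148a-5p is the opposite arm of the miR-148a hairpin and has another seed. The mature sequence is shown for the member that holds most of the family's reads, written as DNA from 5′ to 3′ with the seed, bases 2 to 8, in capitals.
eca-miR-148a: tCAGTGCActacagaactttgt
Among the 44 miRNAs whose sequences the study's supplement gives, 1 had CAGTGCA at bases 2 to 8, and it was eca-miR-148a. Sequences of the relatives were not used here, and since reads were matched with up to 2 mismatches, how many reads the near-identical entries shared was not tested.

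The libraries held 18384 to 149281 miRNA reads, and a single read was worth 5.64 CPM in G3 and up to 38.6 CPM in P2. According to the study's supplement, miRNA reads were a small part of the reads in every library, and the largest part in D2. By the same source G3 kept the smallest part of its raw reads after quality control. D2, with the most reads, stood apart: eca-miR-148a alone took 71.8% of its reads and raised its CPM sum to 3229574, against 682352 to 1585621 in the other 8 libraries. G1 had the next highest sum, with bta-miR-11980 as its leading entry. Without eca-miR-148a the sums were 909610 in D2, 755465 in D1 and 702652 in D3. CPM is therefore reported beside the share of all miRNA reads (total-sum scaling) and the share of the reads that are not eca-miR-148a. The intervals below cover counting error only, because reads copied in PCR were not told apart by molecular identifiers.

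eca-miR-148a was first or second in every library. The G libraries had 154683, 63398 and 39686 CPM of it, the D libraries 121958, 2319965 and 176565 CPM, and the P libraries 119853, 78456 and 86338 CPM. The D libraries were all above the P libraries, while G1 lay between D1 and D3. As a share of the miRNA reads it made up 4.75 to 9.76% in the G, 13.9 to 71.8% in the D and 11.0 to 13.6% in the P libraries, so by share D1 was only just above P1 (13.9% against 13.6%). The fitted log2 change was -2.33 ± 0.86 in G vs. D and -1.98 ± 0.86 in P vs. D (SE, limma on log2(CPM + 10), n = 3 per group), where a negative value means higher in D. Without D2 these values were -1.01 and -0.65. In P vs. G the value was 0.35 ± 0.86, and -0.09 without G3. Fewer vesicles that carry a miRNA and less of it per vesicle cannot be told apart in such pools.

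**Figure D1:**
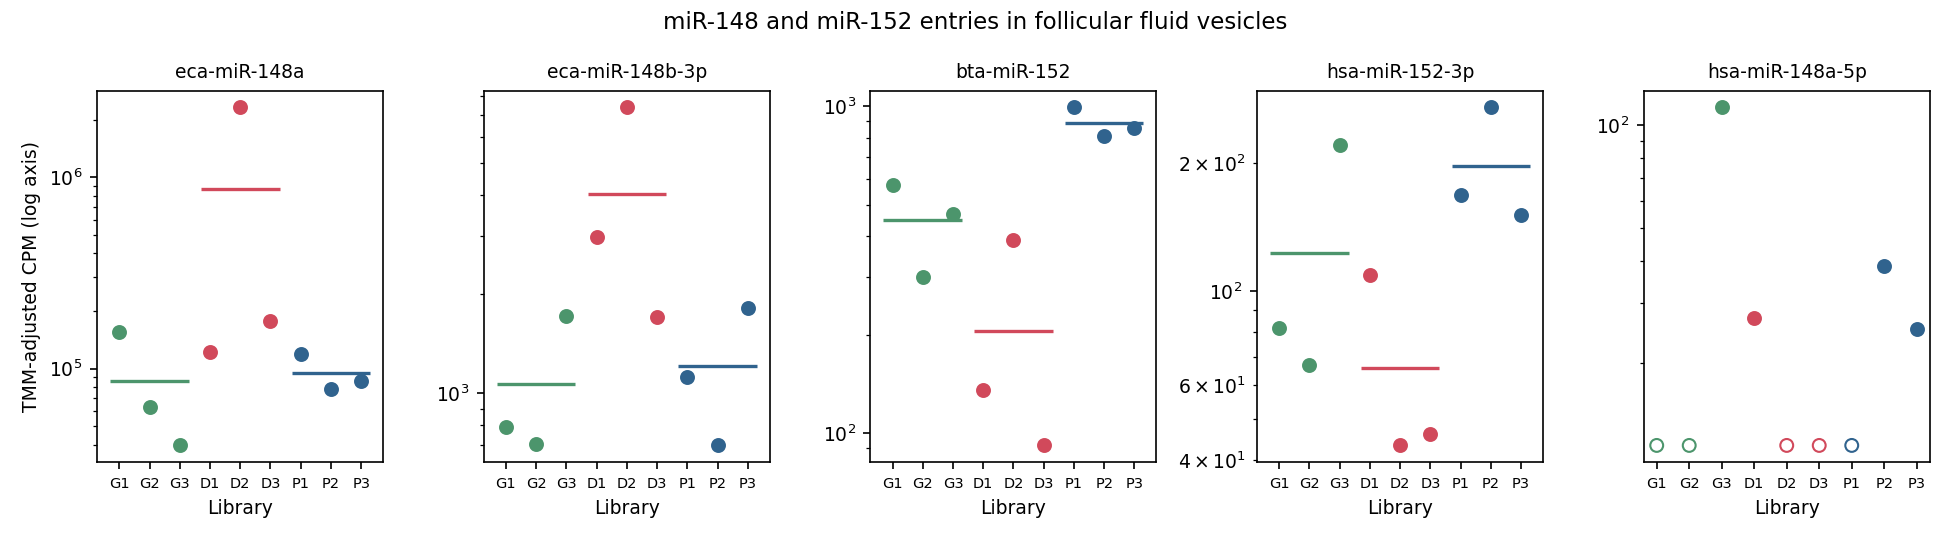
TMM-adjusted CPM (log axis, a separate scale for each panel) of the 5 members in the 9 libraries. Filled points are libraries, lines are group means, and open points mark libraries with 0 reads, drawn below the lowest value; hsa-miR-148a-5p has no lines. eca-miR-148a and eca-miR-148b-3p had their highest value in D2, while both miR-152 entries had all P libraries above all D libraries.

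The closest relative by level, eca-miR-148b-3p, also had its highest value in D2 by CPM. The G libraries had 792, 703 and 1721 CPM of it, with 29, 21 and 305 reads. The D libraries had 2992, 7377 and 1701 CPM (110, 341 and 74 reads), and the P libraries 1121, 696 and 1812 CPM (60, 18 and 72 reads). D1 and D2 were above every G and P library, but D3 lay below G3 and P3, so the groups overlapped. The mean level was 4023 ± 2976 CPM in the D group, against 1072 ± 564 in G and 1210 ± 564 in P (SD, n = 3). The log2 change was -1.75 in G vs. D (SE 0.75, 95% interval -3.37 to -0.14, limma adjusted p = 0.469) and -1.57 in P vs. D (SE 0.75, -3.18 to 0.05, adjusted p = 0.316). In P vs. G it was 0.18 (SE 0.75, -1.43 to 1.80, limma adjusted p = 0.942). As a share of all miRNA reads it made up 0.05, 0.103 and 0.206% in the G libraries, 0.341, 0.228 and 0.193% in the D libraries, and 0.127, 0.0979 and 0.257% in the P libraries, so on this scale P3 was above D2 and D3. With total-sum scaling the log2 change in P vs. D was -0.74 (limma adjusted p = 0.695) and that in G vs. D -1.27 (limma adjusted p = 0.622).

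The miR-152 entries differed in the place of D, which had the lowest group mean, while P had the highest. For bta-miR-152 the G libraries had 574, 301 and 468 CPM (21, 9 and 83 reads) and the D libraries 136, 389 and 91.9 CPM (5, 18 and 4 reads). The P libraries had 990, 812 and 856 CPM (53, 21 and 34 reads). All P libraries were above all G and D libraries, which held for 1.2% of the 417 entries, while D2 was above G2. The mean level was 886 ± 93.1 CPM in the P group, against 206 ± 161 in D and 448 ± 137 in G (SD, n = 3). The log2 change was 2.30 in P vs. D (SE 0.84, 95% interval 0.49 to 4.11, unadjusted p = 0.0167 and adjusted p = 0.231 from limma), so it did not pass the threshold of 0.1 over all 417 entries. The values in G vs. D and P vs. G were 1.29 and 1.01 (SE 0.84 each, limma adjusted p = 0.580 and 0.770).
As a share of all miRNA reads the stages did not overlap at all for bta-miR-152. The share was 0.0362, 0.0442 and 0.056% for the G libraries, 0.0155, 0.0121 and 0.0105% for the D libraries, and 0.112, 0.114 and 0.121% for the P libraries. On this scale all D libraries were below all others for 5.28% of the entries (3.84% by CPM), and all P libraries above all others for 3.84%. As a share of reads other than eca-miR-148a, D2 (0.0428%) was above G1 (0.0401%), and the P libraries (0.128 to 0.138%) stayed above all others, as for 3.37% of the entries. With total-sum scaling the log2 change of bta-miR-152 in P vs. D was 3.11 (limma adjusted p = 0.134), and that of hsa-miR-152-3p 2.16 (limma adjusted p = 0.387). The separation of bta-miR-152 in P from the rest thus held on each scale, and that of D from G by share of all reads only.

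hsa-miR-152-3p had fewer reads, and its order of group means was that of bta-miR-152. The G libraries had 82.0, 66.9 and 220 CPM (3, 2 and 39 reads), the D libraries 109, 43.3 and 46.0 CPM (4, 2 and 2 reads), and the P libraries 168, 271 and 151 CPM (9, 7 and 6 reads). All P libraries were above all D libraries, and G3 was above P1 and P3. The log2 change in P vs. D was 1.50 (SE 1.06, 95% interval -0.78 to 3.78, limma adjusted p = 0.447). It was 0.73 in G vs. D and 0.77 in P vs. G (SE 1.06 each, limma adjusted p = 0.788 and 0.867). The pair of miR-152 entries had a Pearson r of 0.62 and a Spearman rho of 0.63 over the 9 libraries on log2(CPM + 10), and an r of 0.67 without the 2 libraries farthest from the median. This is a description of entries that may share reads. In each library bta-miR-152 had the more reads, from 1.25 times those of hsa-miR-152-3p in D1 (5 against 4 reads) to 9 times in D2 (18 against 2).

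By limma, 0 of the 3 relatives above the minimum in all stages were called in any comparison, a call being an adjusted p below 0.1 with at least a 2-fold change. Of all 417 entries, 0.959% were called between G and D, 0.48% between P and G, and 2.64% between P and D. An unadjusted p below 0.05 was had by eca-miR-148b-3p in G vs. D (1 of the 3, against 9.35% of all entries), by bta-miR-152 in P vs. D (1 of the 3, against 14.6%), and by 0 of the 3 in P vs. G (7.43%). edgeR called 0 relatives in each comparison. DESeq2 called eca-miR-148b-3p between G and D (1 of the 3 relatives, against 14 of all 417 entries). It called bta-miR-152 between P and D (1 of the 3, against 46 of 417). Between P and G it called 0 of the 3, against 14 of 417.
Without regard to a test, the libraries of P and D did not overlap for 3 members, against 22.3% of all entries. Both miR-152 entries were higher in P (12.2% of the entries) and eca-miR-148a was lower (10.1%). Between P and G only bta-miR-152 did not overlap, as for 9.59% of the entries in either direction and 3.6% with P higher. Between G and D all 4 of these members overlapped, and 14.6% of all entries did not.

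**Figure D2:**
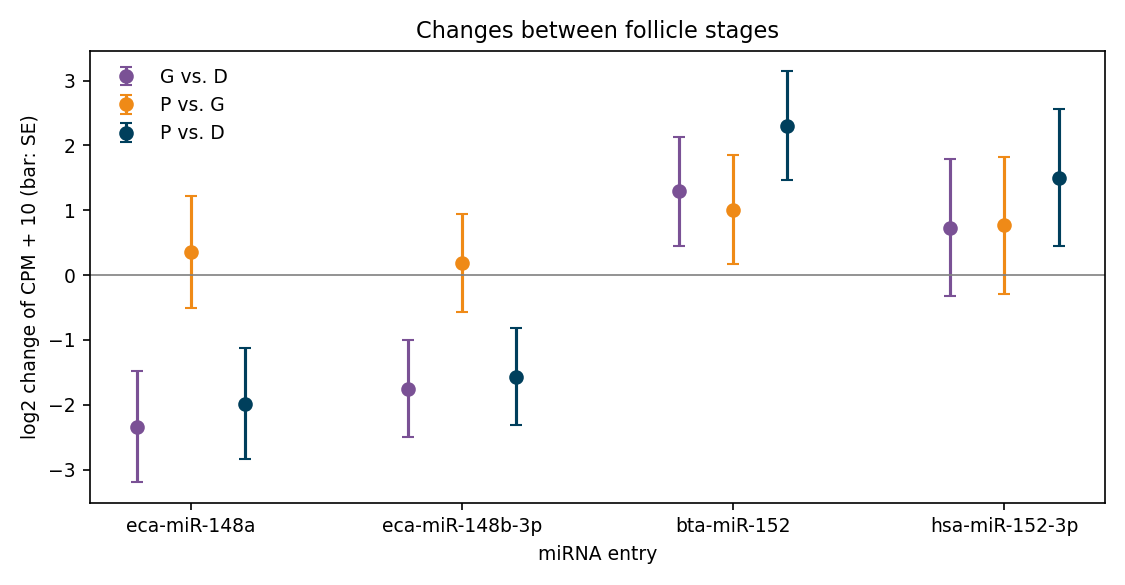
Fitted log2 changes of CPM + 10 (points) with their standard errors (bars) for the 4 members above the minimum in all stages, in the 3 comparisons. A positive value means higher in the group named first. eca-miR-148a and eca-miR-148b-3p were negative against D (-2.33 to -1.57), and both miR-152 entries were positive in all comparisons (0.73 to 2.30).

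The ratio of 2 members within a library does not depend on how libraries are scaled. The ratio of bta-miR-152 to eca-miR-148b-3p reads was nearly the same in the 3 D libraries, at 0.0455, 0.0528 and 0.0541. The G libraries had 0.724, 0.429 and 0.272, and the P libraries 0.883, 1.17 and 0.472. All D libraries were thus below all G and P libraries, and the highest upper bound among them (0.144 in D3, exact 95% counting interval) was below the lowest lower bound of the others (0.173 in G2). Set against each of the 150 entries with reads in all 9 libraries, bta-miR-152 had such a ratio, with D below all others, for 26.0%. The ratio was chosen after its values were seen and was not tested. D2 was not exceptional here, with 18 bta-miR-152 reads to 341 of eca-miR-148b-3p.
The ratio of eca-miR-148a to eca-miR-148b-3p behaved differently. It was 314 in D2 (95% counting interval 283 to 351) but 40.8 in D1 and 104 in D3. The G libraries had 195, 90.2 and 23.1, and the P libraries 107, 113 and 47.6. Only D2 stood above G1, whose interval (136 to 292) overlapped that of D2.

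**Figure D3:**
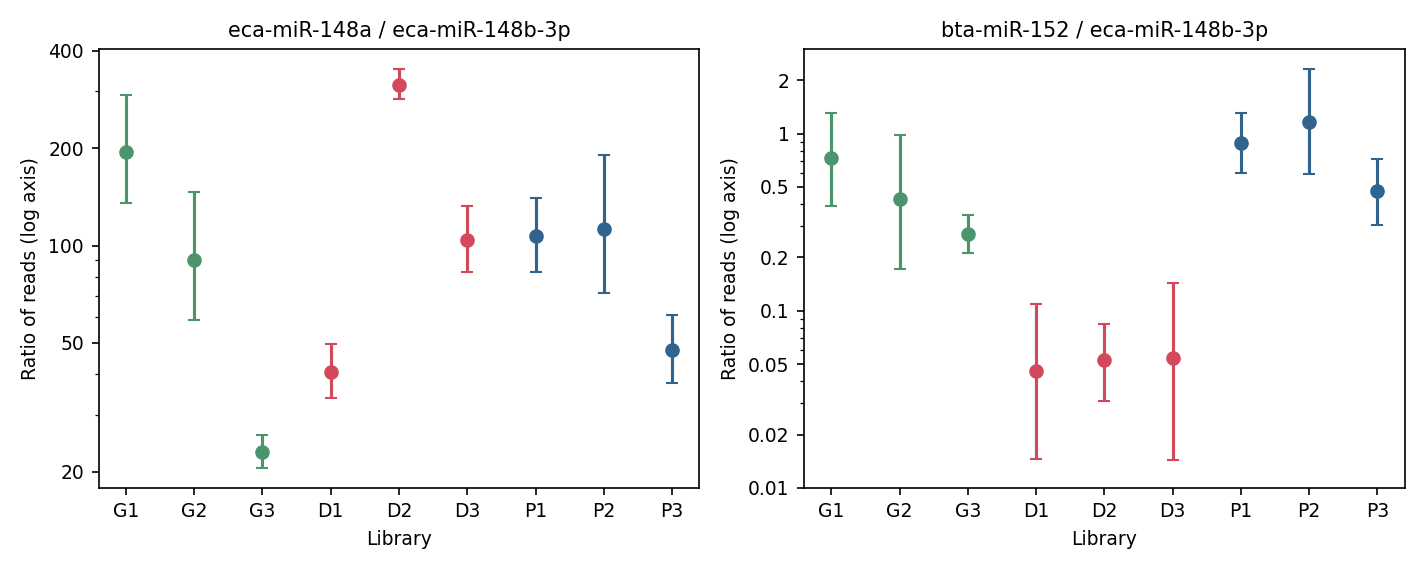
Ratio of reads within each library (log axes) for eca-miR-148a to eca-miR-148b-3p and for bta-miR-152 to eca-miR-148b-3p, with exact 95% counting intervals as bars. In the second panel the D libraries lie at 0.0455 to 0.0541 and all others at 0.272 or above, while in the first D2 is the highest at 314.

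Whether the relatives shared the high value of D2 was read from D2 against D1 and D3. By CPM, 2 of the 4 relatives were higher in D2 than in both, which held for 26.1% of all 417 entries. For eca-miR-148a, D2 was 19.0 times D1 (95% counting interval 18.5 to 19.6) and 13.1 times D3 (12.8 to 13.4). For eca-miR-148b-3p it was 2.47 times D1 (1.98 to 3.09) and 4.34 times D3 (3.37 to 5.66), and for bta-miR-152 2.86 times D1 (1.02 to 9.87) and 4.24 times D3 (1.40 to 17.2). hsa-miR-152-3p had 2 reads in D2 against 4 in D1 and 2 in D3, and hsa-miR-148a-5p had 0 in D2. Compared here are eca-miR-148b-3p and bta-miR-152. The ratios of both were below those of eca-miR-148a, which was singled out for its value in D2, so this is a description only. For bta-miR-152 the interval against D3 reached past that of eca-miR-148a.
On log2(CPM + 10), D2 against the mean of D1 and D3 was 3.96 for eca-miR-148a, 1.69 for bta-miR-152, 1.65 for eca-miR-148b-3p and -0.71 for hsa-miR-152-3p, against a median of -0.06 over the 417 entries. As high or higher as bta-miR-152 were 10.3% of the entries, and as high or higher as eca-miR-148b-3p 14.1%. D2 was the highest of all 9 libraries for eca-miR-148b-3p alone among the relatives, as for 9.59% of the entries, and likewise among the reads other than eca-miR-148a (7.69%). By share of all reads it was the highest for 0 of them, against 2.16%.
By share of all miRNA reads, 0 of the 4 relatives were higher in D2 than in D1 and D3, as for 11.0% of the entries. On that scale the ratio of D2 to the mean of D1 and D3 was 0.855 for eca-miR-148b-3p and 0.929 for bta-miR-152. The ratio was still 4.23 for eca-miR-148a. As log2 ratios (value + 10) eca-miR-148b-3p and bta-miR-152 had -0.23 and -0.10, against a median of -1.34 over the 417 entries. As high or higher than these were 29.0 and 27.1% of the entries. As a share of the reads other than eca-miR-148a, eca-miR-148b-3p had 0.396, 0.811 and 0.242% in the D libraries, and again 2 of the 4 relatives were higher in D2 (22.4% of the entries). Whether eca-miR-148b-3p and bta-miR-152 were higher in D2 thus depended on the scale, while eca-miR-148a was higher there by CPM and by share of all reads.

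**Figure D4:**
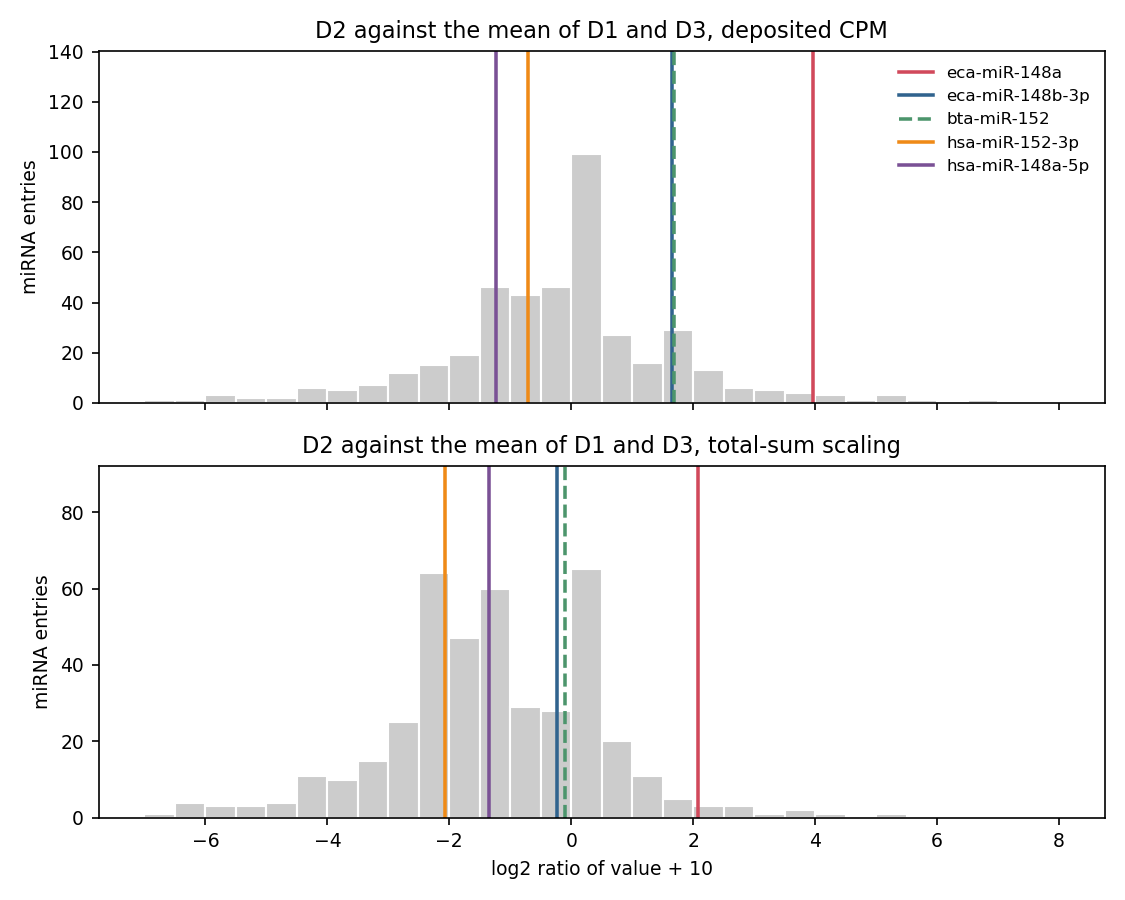
Histograms of the log2 ratio of D2 to the mean of D1 and D3 (value + 10) over the 417 entries, by deposited CPM (top) and after total-sum scaling (bottom), with the 5 members as vertical lines. eca-miR-148a lies at 3.96 and 2.08, while eca-miR-148b-3p and bta-miR-152 lie at 1.65 and 1.69 by CPM and at -0.23 and -0.10 by total-sum scaling. The median of the 417 entries is -0.06 by CPM and -1.34 by total-sum scaling.

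The opposite arm, hsa-miR-148a-5p, passed the minimum in P alone, through 1 read each in P2 (38.6 CPM) and P3 (25.2 CPM), and it was not tested. Just outside the minimum was hsa-miR-152-5p, with 1 read in G3 (5.64 CPM) and 1 in P3 (25.2 CPM). Of the 23 reads of hsa-miR-148a-5p, 20 were in G3 and 1 in D1. Set against eca-miR-148a, the share of the opposite arm in the reads of the pair was 0.284% in G3 (95% Clopper-Pearson interval 0.173 to 0.438%). In D2 it was 0 of 107236, with an upper Clopper-Pearson bound of 0.00344%. The large amount of eca-miR-148a in D2 thus came without reads of the opposite arm, but G1, G2, D3 and P1 had 0 as well. The intervals of D1, P2 and P3, with 1 read each, began at 0.000564 to 0.00125% and so overlapped that of D2. G3, of nearly the same depth as D2 (148150 reads), was the only library with more than 1. The other entries with these names, eca-miR-148b-5p and hsa-miR-148b-5p, had 0 reads in all libraries, as did the related bovine entries bta-miR-148c and bta-miR-148d.

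The miRNAs most like eca-miR-148a over the 9 libraries, by Pearson r on log2(CPM + 10), were hsa-miR-214-5p (0.79), eca-miR-451 (0.77), eca-miR-98 (0.74), bta-miR-451 (0.73) and eca-miR-22 (0.73), and eca-miR-148b-3p came next (0.73). Spearman's rho was 0.39, 0.80, 0.48, 0.65, 0.88 and 0.43 for these 6. The likeness of most of them rested on D2: without it r was 0.14 for hsa-miR-214-5p, 0.47 for eca-miR-451, 0.04 for eca-miR-98, 0.59 for bta-miR-451 and 0.10 for eca-miR-148b-3p, but 0.74 for eca-miR-22. Without D2 and G3, the libraries farthest from the median of eca-miR-148a, r was 0.14, 0.67, 0.19, 0.45, 0.82 and 0.39. The miR-152 entries were unlike it, with r of -0.15 for bta-miR-152 and -0.65 for hsa-miR-152-3p. These are descriptions over libraries that share depth and scaling.

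Other miRNAs were higher in D2 than in D1 and D3 with few or no reads in the latter. The largest differences among the 188 other entries with at least 100 CPM in D on average were those of bta-miR-493 (50 reads in D2, 0 in D1 and D3), hsa-miR-143-5p (25, 0 and 0), eca-miR-193a-5p (20, 0 and 0), hsa-miR-214-5p (41, with 0 in D1 and 1 in D3) and hsa-miR-3615 (58, with 0 and 2). Of the 5 tested red-cell entries (miR-451 and miR-486), 4 were higher in D2 than in D1 and D3 by CPM, against 26.1% of all entries, and 2 by total-sum scaling, against 11.0%. Those 2 were both of miR-451, which stands as more than 1 entry: eca-miR-451 (2423 CPM in D2) and hsa-miR-451a (930 CPM). The entries with higher CPM, bta-miR-451 and eca-miR-486-5p, had log2 ratios of -0.59 and -0.60 on that scale. The median log2 ratio of the 5 red-cell entries was 1.29 by CPM and -0.59 by total-sum scaling (-0.06 and -1.34 over all entries). Their summed level was 214200 CPM in D2, 92801 in D1 and 82089 in D3, with 37592 to 159300 in G and 33508 to 57460 in P, and bta-miR-144 and hsa-miR-451b were at 0. As a share of the reads the list was lower in D2 (6.63%) than in D1 (10.6%) and D3 (9.34%). Of the liver miRNAs 0 of 4 tested entries were higher in D2 on either scale, with 53983 to 61073 CPM in the D libraries together (13356 to 31915 in G, 30610 to 49238 in P). eca-miR-122, which marks hepatocytes, had 43082, 34182 and 20499 CPM in the D libraries. The other liver entries were highest in D3: bta-miR-192 had 11396, 19925 and 21028 CPM, eca-miR-192 5739, 6945 and 11927. eca-miR-194 had 81.6, 21.6 and 529 CPM, and both miR-885 entries were at 0. Of the leukocyte entries 3 of 9 were higher in D2 by CPM and 0 of 9 by total-sum scaling, with 3699 to 9433 CPM in D together, 1448 to 3682 in G and 766 to 1198 in P. The endothelial miR-126 had 1 of 3 and 0 of 3. Granulosa and gonad miRNAs had 2 of 7 and 1 of 7, and 20 of the 29 names were at 0, with a summed level of 173 CPM in D2, 1061 in D1 and 3861 in D3. Most of the sums in D1 and D3 was bta-miR-202, with 0 CPM in D2, 789 in D1 and 3677 in D3. The 1 entry by total-sum scaling was bta-miR-212, with 1 read in D2 (21.6 CPM). By limma 1 of the 5 red-cell entries, eca-miR-486-5p, was called lower in P vs. D (log2 change -2.90, SE 0.66, adjusted p = 0.0476). So were 2 of the 9 leukocyte entries, both of miR-142: bta-miR-142-5p and eca-miR-142-3p (limma adjusted p = 0.0359 and 0.0476). Of all entries 2.64% were called in P vs. D. The calls of eca-miR-486-5p, bta-miR-142-5p and eca-miR-142-3p were lost in 8, 4 and 9 of 19 settings. Among these was each fit without D2, D3, P1 or P2. The part of blood cells in the value of D2 was not tested.

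Lists of miRNAs with the family's known roles were set beside it. A list of miRNAs with members known to repress DNA methyltransferases (miR-29, miR-101, miR-126, miR-143, miR-185, miR-342) was matched by name and so also holds opposite arms with other seeds, such as hsa-miR-143-5p and eca-miR-126-5p. Of its 15 tested entries 0 were called in any comparison by limma, against 0.48 to 2.64% of all entries. At an unadjusted p under 0.05 there were 2 for P vs. G (7.43% of all entries), 2 for P vs. D (14.6%) and 0 for G vs. D (9.35%). edgeR called 0 in each comparison (3 to 7 of all 417 entries). DESeq2 called 2 of the 15 for P vs. D (46 of all 417) and 0 for the others (14 of 417 in each). The median log2 change of the list was 0.72 for G vs. D (0.43 over the 417 entries), -0.58 for P vs. G (-0.28) and -0.10 for P vs. D (0.16). In D2, 10 of the 15 were higher than in D1 and D3 by CPM (26.1% of all entries), and 4 of 15 by total-sum scaling (11.0%). Of these 4, eca-miR-29c, eca-miR-185 and hsa-miR-185-3p had 1 read each in D2 (21.6 CPM) and 0 in D1 and D3. The other was hsa-miR-143-5p, with 541 CPM in D2 and 0 in both. All 4 also count among the 10, where miR-143 and miR-185 each stand as more than 1 entry. By CPM eca-miR-143 had 22413 in D2 against 7262 in D1 and 5952 in D3, and eca-miR-101 had 4803 against 1550 and 643. Neither was among the 4 by total-sum scaling. On that scale their log2 ratios of D2 to the mean of D1 and D3 were -0.12 and 0.25, against a median of -1.34 over all entries. A list of cholesterol and lipoprotein regulators, among them miR-122, miR-128 and miR-27, likewise holds opposite arms such as hsa-miR-27b-5p and hsa-miR-223-5p. Of its 17 tested entries 1 was called, against 2.64% of all entries, and it fell: bta-miR-27a-3p in P vs. D (log2 change -3.41, SE 0.69, limma adjusted p = 0.0359). Its adjusted p ranged from 6.97e-06 to 0.149 over 19 settings, and the call was lost under total-sum scaling and without D1, D2, D3, P1 or P2. The median of this list was 0.06 for G vs. D, -0.69 for P vs. G and -0.49 for P vs. D, and 5 of the 17 were higher in D2 than in D1 and D3 by CPM and 2 by total-sum scaling, against 26.1 and 11.0% of all entries. Those 2 were hsa-miR-128-1-5p (21.6 CPM in D2, 1 read) and hsa-miR-27b-5p (43.3 CPM), both at 0 in D1 and D3.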

How the data were processed

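Small RNAs of FF-EVs were sequenced in 9 libraries. According to the methods, the authors trimmed the reads in CLC Genomics Workbench, matched them to mature and precursor miRNAs of horse (first), cattle and human with at most 2 mismatches, and adjusted by TMM. The deposited values are signal values, TMM-adjusted CPM that do not sum to the same total. Dividing a library's values by the smallest gave whole reads, to within 0.01 of a read for 100% of the values above 0. The submitters' processing notes also name bcl2fastq and DESeq2.

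Entries above 10 CPM in at least 2 of 3 libraries of a group (417) were fitted with limma 3.58.1 (R 4.3.3, trended prior variance, all 9 libraries, group as the only factor) on log2(CPM + 10), which understates changes of entries with few reads. Benjamini-Hochberg adjustment ran over all of them. edgeR 4.0.16 and DESeq2 1.42.0 on the recovered reads were alternatives, besides other pseudocounts, filters, scalings, thresholds, a replicate block, sums over species and leaving out each library. Other steps used Python 3.11.15 (numpy 2.4.6 and scipy 1.17.1 for statistics, pandas 2.3.3 for tables and matplotlib 3.10.9 for plots). The fits were tested on simulated data with the same spread for all entries and changes shared by all D libraries. Such data do not cover a single divergent library like D2.

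Groups followed the follicle stage of the labels. Named were all members, the 5 entries most like eca-miR-148a, the 5 with the largest difference of D2 among entries with at least 100 CPM in D, and up to 4 entries of each list. More entries of a list were named where a count in D2 rested on few reads or where entries differed in direction. Lists were matched by name in any species and arm, so entries of 1 miRNA can share reads. The members and lists were chosen with earlier results of these data known.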

Additional observations from a re-analysis of the deposited data

How the results depend on the processing

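By DESeq2 on the recovered reads, 1 relative was called in G vs. D and 1 in P vs. D instead of 0. These were eca-miR-148b-3p (log2 change -2.08, adjusted p = 0.0906) and bta-miR-152 (2.14, adjusted p = 0.0378). The count was 0 in every other setting tried, edgeR and the fits without 1 library (0 to 0) included. Over all settings the adjusted p of eca-miR-148b-3p in G vs. D ranged from 0.0906 to 0.664 and that of bta-miR-152 in P vs. D from 0.0378 to 0.404. The count of relatives higher in D2 than in D1 and D3 was 0 instead of 2 under total-sum scaling, and 1 when D2 had to exceed all 8 other libraries.

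Leaving out 1 library gave log2 changes of -2.24 (without D3) to -1.18 (without D2) for eca-miR-148b-3p in G vs. D and of 1.89 (without D3) to 2.87 (without D2) for bta-miR-152 in P vs. D, and both signs held in all 20 settings. For eca-miR-148a the change in P vs. D was -2.78 without D1 and -0.65 without D2. The replicate numbers showed at most a weak pairing of the libraries: deviations from the group means had an r of -0.06 to 0.14 over the 9 pairs with the same number, over 0.1 in 2. Pairs with different numbers had an r of -0.19 (G3 with P1) to 0.05 (D3 with P2). With the replicate block, bta-miR-152 in P vs. D kept its log2 change of 2.30 (adjusted p = 0.278), and 0 relatives were called.

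Over all 417 entries the number called in P vs. D was 11. It was 0 without P1 or P2, 1 without D2 or D3, 2 without D1, 5 without P3, 6 at an adjusted p under 0.05, 7 with edgeR or a pseudocount of 50 CPM, 18 on the total without eca-miR-148a, 21 with only the 2 groups in the fit and 46 with DESeq2. In G vs. D it was 4, but 1 under total-sum scaling, with only the 2 groups or without D1, 2 without D2, 8 without G1 and 14 with DESeq2. In P vs. G it was 2, but 19 without G1, 14 with DESeq2, 0 without G2, D1, D3 or any 1 of the P libraries, and 0 to 3 in the other settings. Total-sum scaling moved the median log2 change of all entries by 0.34 for G vs. D, 0.26 for P vs. G and 0.54 for P vs. D. Depth limits hsa-miR-148a-5p most among the members, with 23 reads in all, and then hsa-miR-152-3p with 74 and bta-miR-152 with 248.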
